A study of Homo sapiens with 16 samples.

Results

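The comparison described here asks whether the response to IL4 depends on CREBBP in human B-cell lymphoma lines. It is the change with IL4 in CREBBP-targeted pools minus the change with IL4 in control pools, taken over all 16 RNA-seq libraries of the study. The genes described are the 11159 of 62714 annotated genes (17.8%) that reached at least 1 CPM (the count of a gene scaled by the total count of its library) in each of the 8 libraries without IL4. They were therefore transcribed in every pool without the cytokine. They were chosen by their baseline level only, and not by their response.

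In 4 established lymphoma lines (SU-DHL4, OCI-LY7, SU-DHL10 and DOHH2), CREBBP or, as the control, the AAVS site was targeted by a lentivirus carrying Cas9 and pooled guides. The cells were kept as pools and not as clones, so a pool may still hold cells with an intact gene, and all 16 libraries, controls included, come from transduced cells that carry Cas9 and guides. Each of the 8 pools gave 1 library after 4 h of culture without IL4 (baseline) and 1 after 4 h with IL4 (10 ng/ml). The 4 groups of 4 libraries are thus AAVS and CREBBP pools, each at baseline and with IL4. SU-DHL4 is called line 1 here, and DOHH2 line 4. The labels contradict each other on which of OCI-LY7 and SU-DHL10 is line 2 and which is line 3, and these are called by their numbers.

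IL4 binds a receptor made of IL4R and a partner chain, and the JAK kinases on that receptor phosphorylate STAT6, which enters the nucleus and binds the promoters and enhancers of its target genes. CREBBP and its paralog EP300 are acetyltransferases that transcription factors, STAT6 and NF-kappaB among them, recruit to acetylate histones and start transcription. CREBBP is among the genes most often mutated in follicular lymphoma, where genes of the antigen presentation machinery are known to depend on it.

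The CREBBP guides are shown because they define the targeted genotype. The 4 guides given by the study were each found at 1 perfect site of GRCh38, and their sequences are printed 5′ to 3′ in lower case, with the adjoining genomic PAM in capitals. The coordinates are those of the guide without the PAM.
CREBBP guide 1, chr16:3780864-3780883 (-): cttagcccactgatgaacgaTGG
CREBBP guide 2, chr16:3850334-3850353 (-): ccgcaaatgactggtcacgcGGG
CREBBP guide 3, chr16:3739580-3739599 (-): attgcccccctccaaacacgAGG
CREBBP guide 4, chr16:3751711-3751730 (+): caggacggtacttacgtctgGGG
The CREBBP guides cut in coding exons 8, 2, 25 and 20 of 31, in this order. The AAVS site is in common use as a neutral control locus.

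Total counts ranged from 40779545 to 56115623 in AAVS baseline, from 19649735 to 47716763 in AAVS IL4, from 29196801 to 55042473 in CREBBP baseline and from 40248937 to 61981976 in CREBBP IL4. All 8 markers of B-cell lymphoma lines that were examined (among them MS4A1, CD79A, PAX5 and BCL6) were at 1 CPM or more in every library. The 4 AAVS IL4 libraries stood apart from the other 12 by transcripts that those hardly held. Genes under 0.5 CPM in each of the 12 libraries of the other groups took 0.677%, 0.297%, 1.32% and 0.247% of the counts of the AAVS IL4 libraries of lines 1 to 4, and the same share was between 0.043% and 0.108% in any library of another group. The genes were picked for being low in those 12, so a higher share in AAVS IL4 is partly fixed by the choice. No matching set was made for another group. IGHM, the heavy chain of IgM, was at 138 CPM or more in each AAVS IL4 library and at no more than 0.0696 CPM in the other 12. CD44, an adhesion receptor, was at 67.5 CPM or more against at most 0.472 CPM. Genes so low elsewhere are not among those described here, but every AAVS response below rests on these 4 libraries.

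Marker lists of other cells were summed in the same libraries. By these sums the AAVS IL4 libraries lay above the other 12 for the naive and memory B-cell list and the NK-cell list. The other sums overlapped, but single markers on those lists were also higher in AAVS IL4. The summed level of 10 markers of naive and memory B cells was 640 to 3830 CPM in AAVS IL4, 139 to 373 CPM in AAVS baseline, 71.9 to 294 CPM in CREBBP baseline and 57.6 to 287 CPM in CREBBP IL4. IGHD, the heavy chain of IgD, was at 0 in the other 12 libraries, and IGHM was at 0 in AAVS baseline. Of these 10 markers, 9 were at 1 CPM or more in all 4 AAVS IL4 libraries, and 3 in each other group. CD27 and TCL1A, also on this list, were highest in another group. CD27 was at 42.5 to 122 CPM in AAVS IL4 and at up to 282 CPM elsewhere. TCL1A was at 13.6 to 101 CPM in AAVS IL4 and at up to 109 CPM elsewhere. The 9 plasma cell markers summed to 545 to 8842 CPM in AAVS IL4 and to at most 1192 CPM elsewhere. For 17 T-cell markers the sums were 138 to 373 CPM in AAVS IL4 and 102 to 198 CPM elsewhere, and for 8 NK-cell markers 5.48 to 33.0 CPM and 0.533 to 2.27 CPM. The T-cell sum was weighted by LCK, at up to 156 CPM in the other 12 libraries and 42.2 to 99.3 CPM in AAVS IL4. Of the 17, 10 were at 1 CPM or more in all 4 AAVS IL4 libraries, 4 in AAVS baseline and 2 in each CREBBP group. This count was 8 against 5 in each other group for plasma cell markers, and 3 against 1 for monocyte and macrophage markers. The 12 monocyte and macrophage markers summed to 15.1 to 34.9 CPM in AAVS IL4 and to 4.49 to 20.8 CPM elsewhere. The 12 mesenchymal and epithelial markers summed to 4.95 to 50.1 CPM and 1.02 to 34.4 CPM. Single markers on these lists and the plasma cell list, among them MZB1, TNFRSF17, CD14 and DCN, were highest outside AAVS IL4. In line 2 the T-cell sum was lower with IL4 than without (183 against 198 CPM in the AAVS pool), and in line 4 so were the plasma cell sum (977 against 983 CPM) and the mesenchymal and epithelial sum (21.7 against 23.7 CPM). The AAVS IL4 group has no other libraries, so the comparison cannot be made without them, and their part in the results below was not tested. In such bulk RNA, more cells of a type and more RNA per cell cannot be told apart.

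**Figure D1:**
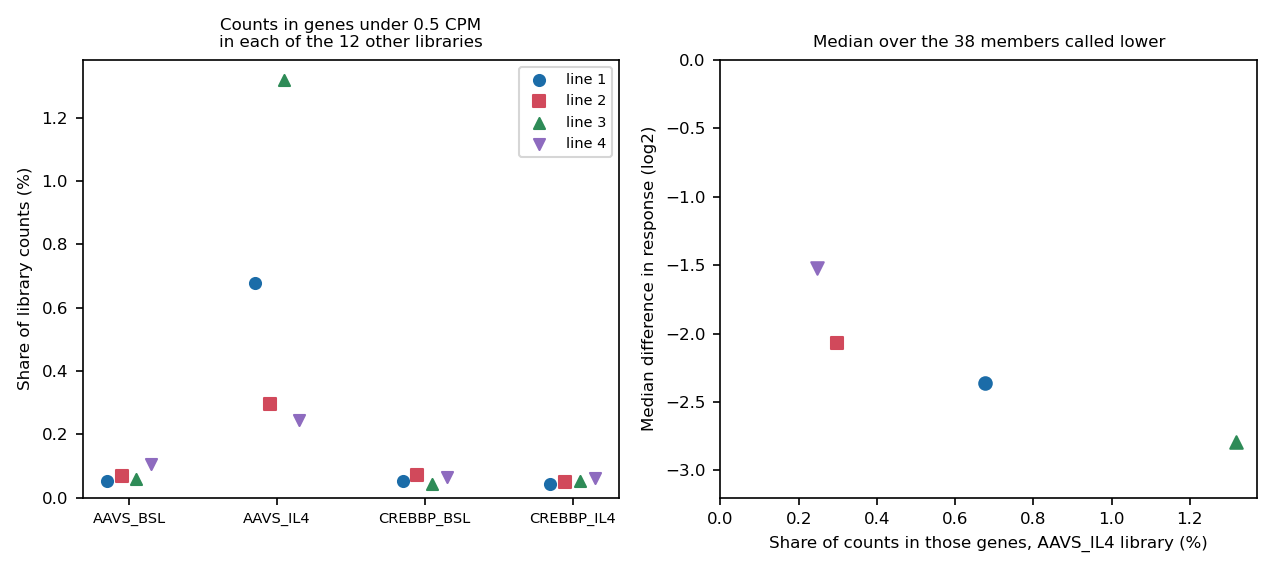
Left, the share of each library's counts (%) in genes under 0.5 CPM in each of the 12 libraries of the other groups, by group and line. Right, for each line, this share in the AAVS IL4 library (x, %) and the median difference in IL4 response over the 38 genes called lower (y, log2). The AAVS IL4 libraries reach 0.247% to 1.32% and the other 12 stay at or under 0.108%. The line with the largest share, line 3, has the largest median difference, -2.80. Its AAVS IL4 library also has the smallest total count of the 4, 19649735.

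Outside AAVS IL4, the libraries of lines 1, 3 and 4 were close to each other, where 1 to 17 genes were under 0.5 CPM in 1 library of a pair but reached 10 CPM in its partner, against 149 to 235 genes in comparisons with line 2. The counts do not settle if lines 1, 3 and 4 are 3 different lines, so that n = 4 lines follows the labels, and p-values measure the spread between these libraries. The CREBBP transcript (ENSG00000005339, chromosome 16, 3725054 to 3880713, minus strand of GRCh38) was at 269, 205, 359.6 and 246 CPM in the AAVS baseline libraries of lines 1 to 4, 315, 190.5, 315 and 379 CPM in AAVS IL4, 278, 191, 187 and 270.3 CPM in CREBBP baseline and 214, 69.9, 245 and 218 CPM in CREBBP IL4. The 4 groups overlapped. The genotypes are taken from the labels, since the transcript does not separate them. The study itself reports, from immunoblots of the targeted pools, that the CREBBP protein was lost. Protein was not measured in the data used here. The difference in response of CREBBP itself was -0.36 ± 0.32 (log2, SE, adjusted p = 0.666 by the quasi-likelihood test of edgeR), and that of EP300 was -0.03 ± 0.32 (adjusted p = 0.983 from the same test), close to no difference and of the opposite sign in 3 of the settings tried.

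Of the 11159 genes, 42 differed in their IL4 response between CREBBP and AAVS pools at an adjusted p under 0.05 (edgeR's quasi-likelihood test, Benjamini-Hochberg over all 21932 genes tested). In 38 the response was lower in the CREBBP pools and in 4 it was higher. These are 0.376% of the genes described, against 0.638% of all genes tested (136 lower, or 0.62%, and 4 higher, or 0.0182%), so the share called is no larger than the background, and 98 of the 140 called genes lie outside the genes described. The calls are mostly lower, whereas at an unadjusted p under 0.05 more genes were higher (1058) than lower (579). The number of calls depends on the model. Without a term for each pool 1 gene was called, with DESeq2 453 and with limma-voom 125, and in fits that left out line 1, 2, 3 or 4 the counts were 1, 92, 3 and 34.

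Each pool type was also tested alone. In the AAVS pools 370 of the 11159 genes changed with IL4, 262 up and 108 down (of all genes tested, 5.27% were called, 4.74% up and 0.529% down). In the CREBBP pools edgeR called 0 genes of the 11159 and 0 of all 21932 (0% called), with 225 of the 11159 at an unadjusted p under 0.05. DESeq2 and limma-voom called 0 of the 11159 as well, and their calls over all genes were not counted. The 2 numbers do not by themselves show a difference, which is what the 42 calls test. Over all 11159 genes the median fitted response was -0.19 for AAVS pools and 0.02 for CREBBP pools (log2), and the median difference was 0.22, with 7528 genes above 0 and 3631 below. This shift depends on the scaling: with factors from the 11159 genes alone it was 0.04, with upper-quartile factors 0.06 and with DESeq2's size factors 0.15. Differences below are printed as fitted and are to be read against the median of 0.22. The median standard error of a difference was 0.34, so a difference of 1 on the log2 scale is about 3 standard errors for a typical gene.

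**Figure D2:**
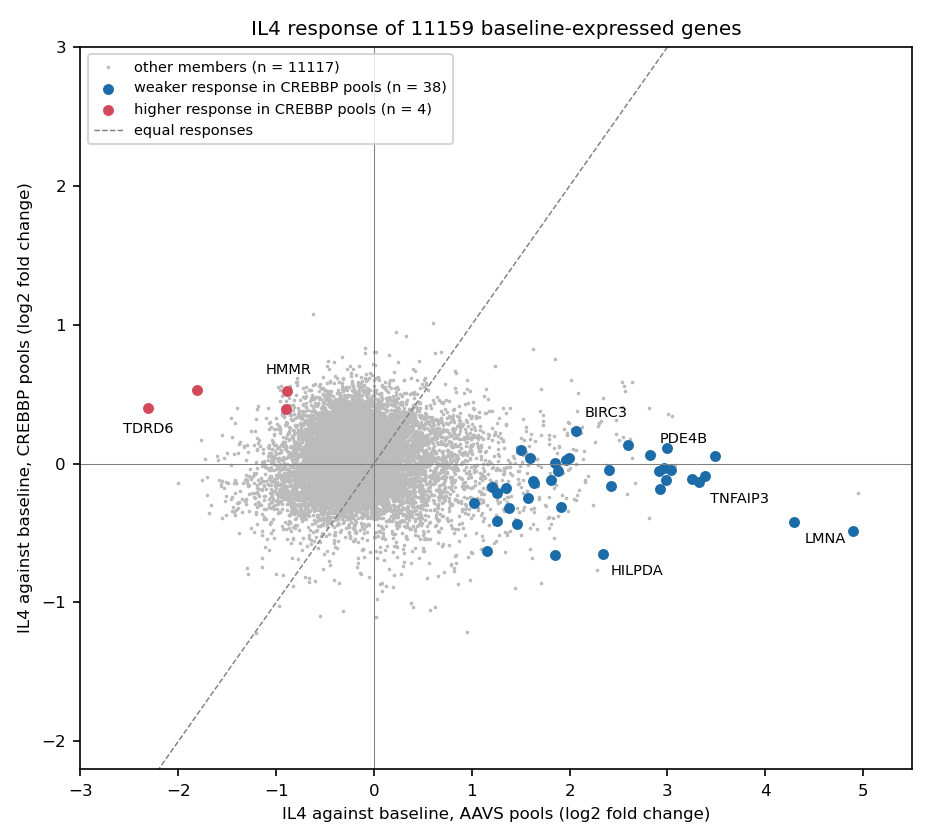
Each point is 1 of the 11159 genes, with its fitted log2 fold change with IL4 on the x axis for AAVS pools and on the y axis for CREBBP pools, and the dashed line marks equal responses. The 38 genes with a lower response in CREBBP pools (blue) lie between 1.02 and 4.90 on the AAVS axis and between -0.66 and 0.23 on the CREBBP axis, and the 4 with a higher response (red) lie left of 0 on the AAVS axis.

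The 38 genes with a lower response were picked by their difference in response in these same 16 libraries. The pattern they share follows in part from that choice, so it is a description and not separate support. All 38 also passed the test for a rise with IL4 in the AAVS pools, with a median of 1.97 on the log2 scale and a range of 1.02 to 4.90. In the CREBBP pools the median was -0.12, the range was -0.66 to 0.23 and the standard errors were 0.18 to 0.58. None of the 38 passed the adjusted test there, and 1, NLRP1, had an unadjusted p under 0.05. The median difference was -2.09 (-5.38 to -1.31), and all 38 had a negative difference in 4 of 4 lines. The change was on the AAVS side, where the 4 IL4 libraries lay above the other 12 libraries in CPM for 24 of the 38 genes (1.45% of the 11159 genes and 4.4% of all genes tested did so). They lay below the other 12 for 0 of the 4 genes called higher (0.0807% of the 11159 genes and 0.041% of all genes tested).

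The size of the difference varied by line. Over the 38 genes the median was -2.36 in line 1, -2.07 in line 2, -2.80 in line 3 and -1.52 in line 4. It was largest in line 3 for 23 of the 38 genes and smallest in line 4 for 20 and in line 2 for 12. The lines stood in the same order by the share of AAVS IL4 counts in genes that the other 12 libraries hardly held, with 1.32% in line 3, 0.677% in line 1, 0.297% in line 2 and 0.247% in line 4. The total counts of the AAVS IL4 libraries ordered the lines in the same way, with the smallest total where the difference was largest. They were 19649735 in line 3, 25640336 in line 1, 33941291 in line 2 and 47716763 in line 4. With 4 lines no correlation was computed. The part of the share or of the total counts in the size of the difference was not tested.

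**Figure D3:**
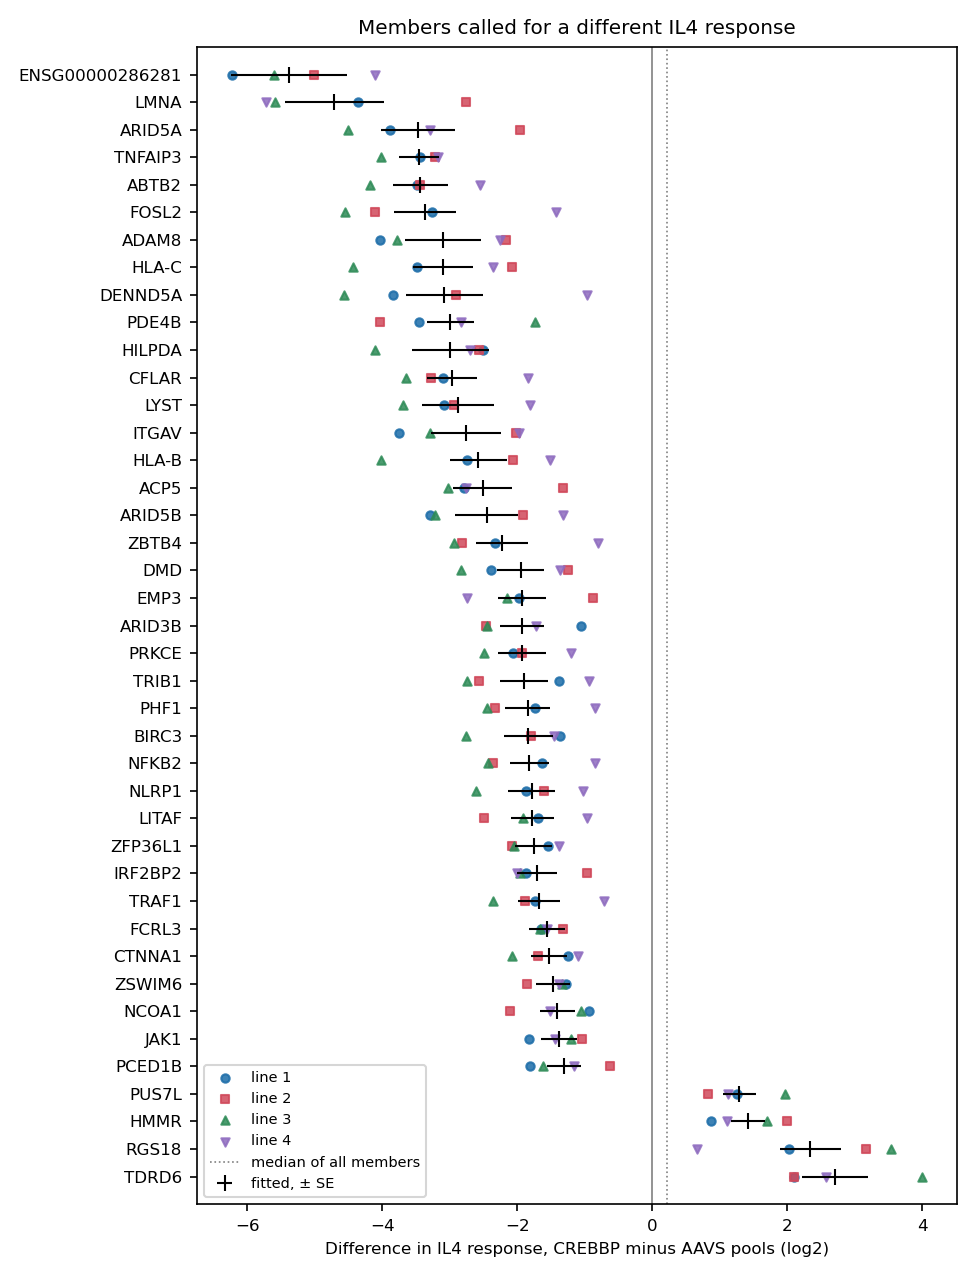
The difference in IL4 response (log2, CREBBP minus AAVS pools) of called genes in each of the 4 lines (coloured symbols) and as fitted over the 16 libraries (black, ± SE), with 0 as a solid line and the median of all 11159 genes as a dotted line. Every symbol of the genes called lower (upper rows) lies left of 0, and line 3 (green triangles) is the farthest out for more of them than any other line.

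Among the 38 genes, 5 act in NF-kappaB signalling or the death receptor pathway beside it. TNFAIP3, the deubiquitinase A20 that ends NF-kappaB signalling, had the smallest p of all genes described (chromosome 6, 137867214 to 137883314, plus strand). Its level was 17.1, 15.4, 18.6 and 15.01 CPM in the AAVS baseline libraries of lines 1 to 4, 182, 117, 411 and 125 CPM in AAVS IL4, 14.2, 77.6, 8.01 and 4.36 CPM in CREBBP baseline and 11.9, 44.5, 10.2 and 3.94 CPM in CREBBP IL4. All 4 AAVS IL4 libraries lay above the other 12, whose highest value was that of CREBBP baseline line 2. The response was 3.33 ± 0.22 in the AAVS and -0.14 ± 0.2 in the CREBBP pools (log2, SE), and the difference was -3.46 ± 0.29, adjusted p = 0.000291 by the quasi-likelihood test of edgeR. TNFAIP3 was the only one of the 42 genes that stayed called in each of the 4 fits that left out a line.

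CFLAR, which encodes c-FLIP, an inhibitor of caspase-8 and itself an NF-kappaB target (chromosome 2, 201116154 to 201176687, plus strand), was at 25.9, 6.23, 26.5 and 28.5 CPM in the AAVS baseline libraries of lines 1 to 4, 205, 51.3, 488 and 113 CPM in AAVS IL4, 20.04, 7.36, 13.6 and 21.1 CPM in CREBBP baseline and 15.8, 4.32, 18.5 and 22.8 CPM in CREBBP IL4. The AAVS IL4 libraries were the 4 highest, with line 2 lowest in each group. The difference was -2.97 ± 0.37, adjusted p = 0.00624 (edgeR). NFKB2, the p100 precursor of the noncanonical pathway (chromosome 10, 102394110 to 102402524, plus strand), was at 41.5, 32.6, 52.9 and 43.4 CPM in the AAVS baseline libraries of lines 1 to 4, 133, 108, 278 and 88.9 CPM in AAVS IL4, 51.4, 106, 30.5 and 22.8 CPM in CREBBP baseline and 45.5, 47.9, 27.6 and 25.4 CPM in CREBBP IL4. Here the groups overlapped, since CREBBP baseline line 2 lay above AAVS IL4 line 4, although every line had a negative difference. The difference was -1.82 ± 0.28, adjusted p = 0.0209 (edgeR).

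BIRC3, the ubiquitin ligase cIAP2, was at 41.3 to 103 CPM without and 163 to 619 CPM with IL4 in the AAVS pools. In the CREBBP pools it was at 39.3 to 69.1 CPM without and 48.1 to 70.1 CPM with IL4. The difference was -1.84 ± 0.36, adjusted p = 0.048 (edgeR). TRAF1, an adaptor of TNF receptors, showed 79.6 to 190.1 CPM in AAVS IL4 against 37.2 to 83.3, 20.8 to 64.2 and 19.3 to 32.4 CPM in AAVS baseline, CREBBP baseline and CREBBP IL4, with a difference of -1.67 ± 0.31, adjusted p = 0.0414 (edgeR). BIRC3 stayed called in none of the fits that left out a line, and the same held for NLRP1, TRIB1, PRKCE, LYST and HMMR. Of the 19 described genes on the list of NF-kappaB subunits and feedback genes, 4 were called lower (TNFAIP3, NFKB2, BIRC3, TRAF1) and 0 higher, 17 had a negative difference, and the median was -0.83 beside 0.22 over all genes described. NFKBIA, the inhibitor that NF-kappaB induces against itself (-1.49, adjusted p = 0.109), NFKBIE (-1.16, 0.0698) and CYLD (-1.77, 0.0726) did not pass by edgeR's test, and the subunits REL (-0.14) and RELA (-0.64) were nearer to 0. The list's median was -0.83, -1.10, -0.79 and -0.68 in lines 1 to 4.

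Promoter sequence was read for the 38 genes because they passed the test together. In the 250 bases before the first listed start of 32 of the 38 genes (RefSeq promoters, GRCh38.p14), 7 held a match to the kappaB consensus on either strand (21.9%), against 5.65% of 8001 promoters of protein-coding genes described and 5.05% of all 27305 promoters. The STAT6 motif, TTC and GAA with 4 bases between, was found in 2 of the 32 (6.25%, against 3.99% and 5.35%), the STAT motif with 3 bases between in 0, the cAMP response element TGACGTCA in 0 and the AP-1 motif TGANTCA in 3 (9.38%, against 3.30% and 6.60%). These are letter matches in a short window, and binding was not measured. The genes were picked from these same data, 5 motifs were searched, and the shares were not tested. Of the 7 stretches, 5 are shown 5′ to 3′ on the strand of the gene, with the matches in capitals. They are those of TNFAIP3, BIRC3 and CFLAR, described above, and of HLA-B and FCRL3, described further on. FCRL3 has matches to both the kappaB consensus and the STAT6 motif, in this order.
TNFAIP3, chr6:137867152-137867253 (+): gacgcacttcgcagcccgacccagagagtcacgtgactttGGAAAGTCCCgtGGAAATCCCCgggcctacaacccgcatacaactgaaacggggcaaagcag
BIRC3, chr11:102317245-102317398 (+): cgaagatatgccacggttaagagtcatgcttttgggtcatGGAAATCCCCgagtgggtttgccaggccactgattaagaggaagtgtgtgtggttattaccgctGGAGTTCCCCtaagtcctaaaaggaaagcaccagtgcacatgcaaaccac
CFLAR, chr2:201118579-201118668 (+): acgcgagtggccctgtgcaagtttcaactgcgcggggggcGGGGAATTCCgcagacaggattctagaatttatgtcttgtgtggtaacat
HLA-B, chr6:31357306-31357396 (-): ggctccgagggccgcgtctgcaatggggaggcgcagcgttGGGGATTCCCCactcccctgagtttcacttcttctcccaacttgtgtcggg
FCRL3, chr1:157700770-157700891 (-): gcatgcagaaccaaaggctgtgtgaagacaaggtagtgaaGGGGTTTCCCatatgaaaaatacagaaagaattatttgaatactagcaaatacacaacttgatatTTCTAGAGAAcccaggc
TNFAIP3 and BIRC3 each held 2 separate kappaB matches, at -67 and -55 and at -199 and -135 from the start, whereas the 2 matches of HLA-B overlap. PHF1 and HLA-C held 1 kappaB match each, and HLA-C also a STAT6 match. HLA-B and HLA-C are related genes with similar sequence around their kappaB matches, so they are not separate instances. NFKB2 and TRAF1 held none in this window.

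HLA-B and HLA-C, class I genes that present peptides to CD8+ T cells, were called lower. HLA-C (chromosome 6, 31268749 to 31272130, minus strand) was at 14.7, 26.9, 23.8 and 6.24 CPM in the AAVS baseline libraries of lines 1 to 4, 206, 93.1, 506 and 33.8 CPM in AAVS IL4, 14.4, 27.3, 11.8 and 3.98 CPM in CREBBP baseline and 15.5, 15.7, 10.8 and 4.098 CPM in CREBBP IL4. The line 1 to 3 libraries of AAVS IL4 were the 3 highest, and that of line 4, at 33.8 CPM, was still above the 12 others. The difference was -3.1 ± 0.44, adjusted p = 0.0134 (edgeR). HLA-B (chromosome 6, 31353872 to 31367067, minus strand) showed 182 to 1669 CPM in AAVS IL4 against 64.5 to 136, 24.3 to 232 and 23.5 to 149 CPM in AAVS baseline, CREBBP baseline and CREBBP IL4, with a difference of -2.58 ± 0.42, adjusted p = 0.0266 (edgeR). For HLA-B the groups overlapped, since 232 CPM in CREBBP baseline line 2 lay above 182 CPM in AAVS IL4 line 4. The classical class I genes share sequence and vary between lines, so the split of estimated counts among them is uncertain.

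Of 15 described genes of the class I pathway, 12 had a negative difference and the median was -0.95. HLA-E (-1.38, adjusted p = 0.0573) and the peptide transporter subunit TAP1 (-2.02, 0.0726) did not pass edgeR's test, and B2M, the shared light chain, was at -0.36 (0.783). TAP2 was at 0.05, and the chaperones CALR and PDIA3 at 0.6 and 0.66. In class II, which presents peptides to CD4+ T cells, 0 of 16 genes were called (8 lower and 0 higher at an unadjusted p under 0.05), with a median of -0.81. CIITA, the transactivator of class II genes, was at 312 to 686 CPM in AAVS IL4 against 167 to 327 CPM in AAVS baseline, with a difference of -1.19 ± 0.29 (adjusted p = 0.102, edgeR) and a negative value in 4 of 4 lines. The RFX factors that bind class II promoters were at 0.08, 0.46 and 0.46 (RFX5, RFXAP and RFXANK).

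**Figure D4:**
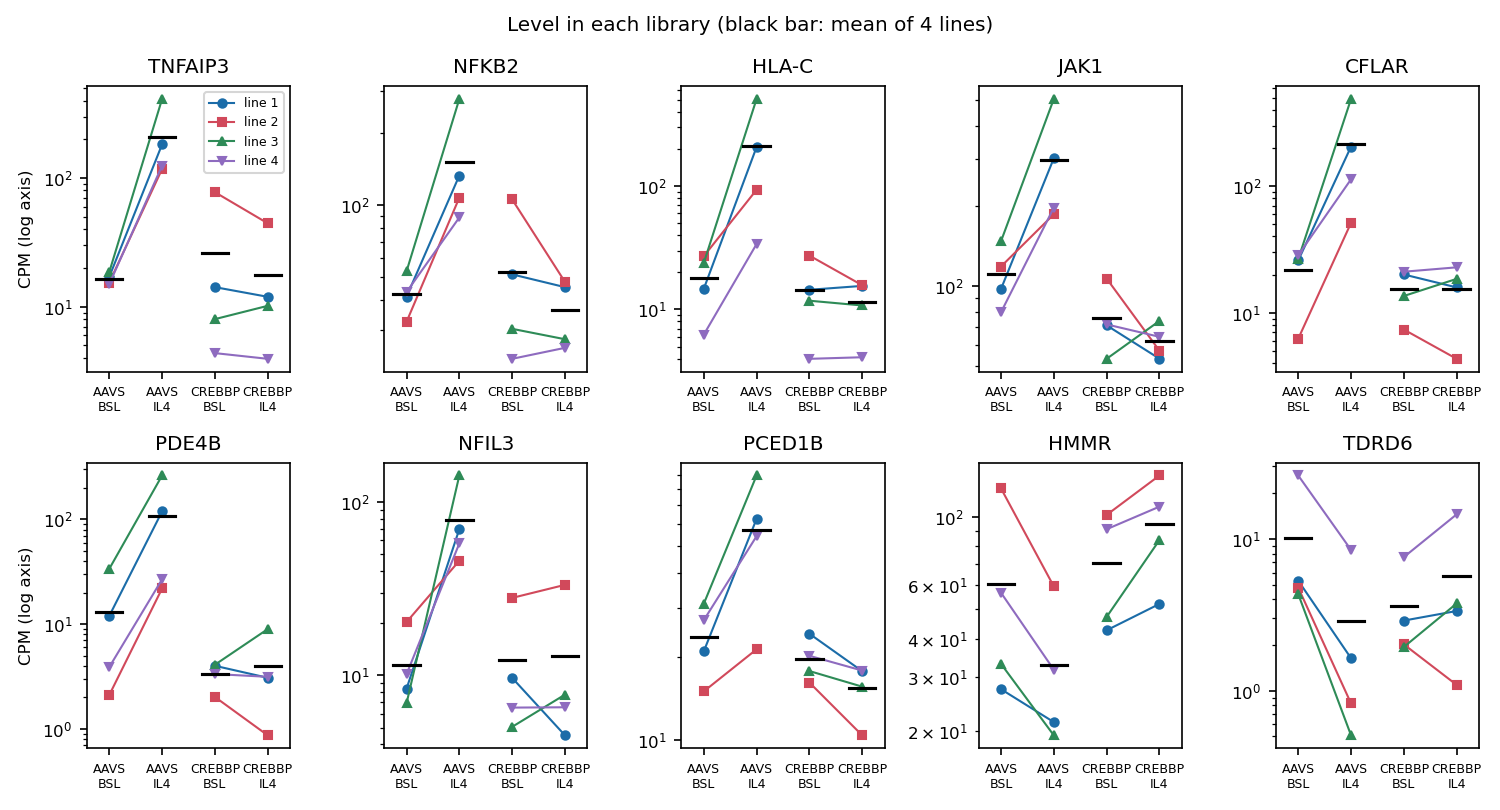
CPM (log axis) of 10 genes in the 16 libraries, by group, with lines joining baseline and IL4 libraries of a pool and black bars for the mean of 4 lines. The AAVS pools rise with IL4 in all 4 lines for TNFAIP3, NFKB2, HLA-C, JAK1, CFLAR, PDE4B, NFIL3 and PCED1B, while HMMR and TDRD6 fall there in 4 of 4 lines.

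Regulators of transcription and chromatin made up a further group of the 38. FOSL2, an AP-1 subunit, was at 4.21, 1.57, 5.62 and 6.38 CPM in the AAVS baseline libraries of lines 1 to 4, 53.4, 16.6, 107 and 29.9 CPM in AAVS IL4, 3.25, 6.17, 2.37 and 1.25 CPM in CREBBP baseline and 3.65, 2.56, 1.76 and 2.16 CPM in CREBBP IL4. The AAVS IL4 libraries were the 4 highest, and the nearest of them, that of line 2, was still above the 12 others. The difference was -3.36 ± 0.46, adjusted p = 0.0102 (edgeR), and it was the only one of 15 immediate early genes called. The median of these 15 was -1.05, but by line it was -0.45, -2.48, -1.81 and 1.18, so line 4 went the other way. Among them FOS was at -1.22, JUN at -1.77 and EGR1 at 0.48.

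From the AT-rich interaction domain family, 3 genes were called. ARID5A, an RNA-binding protein that stabilises inflammatory transcripts, showed 30.1 to 182 CPM in AAVS IL4 against 2.46 to 14.1, 2.91 to 25.2 and 3.48 to 12.1 CPM in AAVS baseline, CREBBP baseline and CREBBP IL4, with a difference of -3.47 ± 0.55, adjusted p = 0.0227 (edgeR). ARID5B, a partner of the demethylase PHF2, showed 168 to 608 CPM in AAVS IL4 against 25.4 to 81.7, 16.96 to 41.5 and 15.2 to 49.1 CPM in AAVS baseline, CREBBP baseline and CREBBP IL4, with -2.46 ± 0.47, adjusted p = 0.0442 (edgeR). For ARID3B the values were 8.61 to 58.5 CPM in AAVS IL4 against 2.31 to 10.7, 1.76 to 13.05 and 1.94 to 13.9 CPM in AAVS baseline, CREBBP baseline and CREBBP IL4, with -1.93 ± 0.32, adjusted p = 0.0285 (edgeR). The AAVS IL4 libraries were the 4 highest for ARID5A and ARID5B and overlapped with the other groups for ARID3B. The methyl-CpG binding repressor ZBTB4 was at -2.23, the Polycomb partner PHF1 at -1.85 and the IRF2 corepressor IRF2BP2 at -1.71 (adjusted p = 0.0335, 0.0354 and 0.035, edgeR). NCOA1, a coactivator that binds CREBBP and EP300, was the only one of 14 genes on the acetyltransferase list to be called, at 43.6 to 98.9 CPM in AAVS IL4 and 11.5 to 30.03 CPM in AAVS baseline (difference -1.41 ± 0.26, adjusted p = 0.0411). The list's median was -0.03, and its CREBBP and EP300 values are given above.

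In cytokine and kinase signalling, JAK1, which phosphorylates STAT6 at the IL4 receptor (chromosome 1, 64833223 to 65067754, minus strand), was at 97.5, 118, 147 and 79.7 CPM in the AAVS baseline libraries of lines 1 to 4, 302, 186, 505 and 197 CPM in AAVS IL4, 71.2, 107, 53.3 and 71.8 CPM in CREBBP baseline and 53.4, 57.2, 73.97 and 64.5 CPM in CREBBP IL4. The AAVS IL4 libraries were the 4 highest in this gene as well. The response was 1.21 ± 0.19 in the AAVS and -0.17 ± 0.19 in the CREBBP pools, and the difference was -1.38 ± 0.27, adjusted p = 0.047 (edgeR). PDE4B, a phosphodiesterase that degrades cAMP (chromosome 1, 65792514 to 66374579, plus strand), was at 11.99, 2.11, 33.8 and 3.89 CPM in the AAVS baseline libraries of lines 1 to 4, 119, 21.9, 262 and 26.8 CPM in AAVS IL4, 4.01, 2.02, 4.101 and 3.34 CPM in CREBBP baseline and 3.08, 0.870, 8.98 and 3.15 CPM in CREBBP IL4. AAVS baseline line 3 lay above the AAVS IL4 libraries of lines 2 and 4, so the groups overlapped, while each AAVS pool rose against its own baseline. The difference was -2.99 ± 0.35, adjusted p = 0.00438 (edgeR).

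Other genes of signalling and RNA control were called as well. PRKCE, a calcium-independent protein kinase C, was at -1.93, and TRIB1, a pseudokinase that directs COP1 to its substrates, at -1.9 (adjusted p = 0.0414 and 0.0414, edgeR). LITAF, an endosomal membrane protein, was at -1.78, and ZFP36L1, which destabilises AU-rich transcripts, at -1.76 (0.0354 and 0.0192). NLRP1, an inflammasome sensor, was at -1.79 (0.0468) and is the 1 gene of the 38 with an unadjusted p under 0.05 in the CREBBP pools, where its fitted response was -0.63 ± 0.24. FCRL3, a B-cell receptor of the Fc receptor-like family, was at 9.05 to 502 CPM in AAVS IL4, the lowest value being that of line 2, where the gene was low in all 4 groups. Its difference of -1.56 ± 0.27, adjusted p = 0.0335 (edgeR) was nearly equal in the 4 lines, at -1.65, -1.32, -1.67 and -1.56.

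Genes of the nuclear envelope, the cytoskeleton and the cell surface included the largest difference of a gene with a symbol. LMNA, which encodes lamin A and C (chromosome 1, 156082573 to 156140081, plus strand), was at 3.56, 10.9, 5.62 and 2.100 CPM in the AAVS baseline libraries of lines 1 to 4, 86.04, 37.8, 211 and 121 CPM in AAVS IL4, 2.45, 16.6, 2.33 and 1.04 CPM in CREBBP baseline and 2.43, 5.89, 1.67 and 1.08 CPM in CREBBP IL4. The AAVS IL4 libraries were the 4 highest, down to 37.8 CPM in line 2, against at most 16.6 CPM in the 12 others. The difference was -4.71 ± 0.74, adjusted p = 0.0209 (edgeR). ADAM8, a membrane metalloprotease, was at -3.11, and ITGAV, the integrin alpha V chain, at -2.76 (adjusted p = 0.0381 and 0.0414, edgeR). EMP3, a small membrane protein, was at -1.93, alpha-catenin CTNNA1 at -1.53 and dystrophin DMD at -1.95 (0.0414, 0.0351 and 0.0373). LMNA lay just inside the limit for inclusion, with a lowest baseline value of 1.04 CPM.

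The rest of the 38 act in membrane traffic, metabolism or ways less well known. DENND5A, an exchange factor for Rab GTPases, and LYST, the lysosomal trafficking regulator, were at -3.08 and -2.88 (adjusted p = 0.0414 for each, edgeR). The acid phosphatase ACP5 was at -2.51 (0.0348). ABTB2 showed 21.2 to 44.1 CPM in AAVS IL4 against 2.09 to 2.57, 1.53 to 2.91 and 1.52 to 2.97 CPM in AAVS baseline, CREBBP baseline and CREBBP IL4, with a difference of -3.44 ± 0.41, adjusted p = 0.00456 (edgeR), and its 4 AAVS IL4 libraries lay well apart from the 12 others. ZSWIM6 was at -1.47 (0.0326). HILPDA, a lipid droplet protein that hypoxia induces, differed from the other genes in that its CREBBP pools were already high at baseline: 41.1 to 101 CPM in AAVS IL4 against 7.53 to 22.8, 27.7 to 84.6 and 12.2 to 95.4 CPM in AAVS baseline, CREBBP baseline and CREBBP IL4, with a difference of -2.99 ± 0.57, adjusted p = 0.0442 (edgeR). The largest difference of all, -5.38 ± 0.86 (adjusted p = 0.0227, edgeR), was that of ENSG00000286281, a long noncoding RNA without a symbol (chromosome 6, 14210293 to 14214374, plus strand), which was at 23.9 to 215 CPM in AAVS IL4 and at 1.05 to 5.002 CPM in AAVS baseline.

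The 4 genes with a higher response in the CREBBP pools fell with IL4 in the AAVS pools, all 4 past the test there, with a median of -1.35. In the CREBBP pools their median was 0.46 and none passed. HMMR, a spindle and hyaluronan-binding protein of mitosis (chromosome 5, 163460203 to 163491941, plus strand), was at 27.4, 124, 33.1 and 56.5 CPM in the AAVS baseline libraries of lines 1 to 4, 21.4, 59.2, 19.4 and 31.7 CPM in AAVS IL4, 42.6, 101, 47.1 and 90.98 CPM in CREBBP baseline and 51.9, 136, 83.8 and 108 CPM in CREBBP IL4. It fell in each AAVS pool and was higher with IL4 in each CREBBP pool, but the groups overlapped, and line 2 was the highest line in every group. The difference was 1.42 ± 0.25, adjusted p = 0.0351 (edgeR), and HMMR stayed called in none of the fits that left out a line. TDRD6, a tudor protein of germ cell granules, was at 5.31, 4.78, 4.33 and 26.2 CPM in the AAVS baseline libraries of lines 1 to 4, 1.64, 0.825, 0.509 and 8.47 CPM in AAVS IL4, 2.899, 2.02, 1.94 and 7.59 CPM in CREBBP baseline and 3.35, 1.09, 3.76 and 14.5 CPM in CREBBP IL4. Each AAVS pool fell by more than 1 on the log2 scale, and line 4 was the highest in every group. The difference was 2.71 ± 0.49, adjusted p = 0.038 (edgeR). RGS18, which speeds GTP hydrolysis by G proteins, showed 1.98 to 14.9 CPM in AAVS IL4 against 9.298 to 27.8, 4.08 to 24.7 and 5.93 to 22.9 CPM in AAVS baseline, CREBBP baseline and CREBBP IL4, with a difference of 2.34 ± 0.45, adjusted p = 0.0442 (edgeR). PUS7L, of the pseudouridine synthase family, showed 29.7 to 75.4 CPM in AAVS IL4 against 51.1 to 128, 47.5 to 139 and 50.04 to 175 CPM in AAVS baseline, CREBBP baseline and CREBBP IL4, with 1.29 ± 0.25, adjusted p = 0.0441 (edgeR). The 6 next genes by p with a positive difference did not pass: FGD4 (1.66, adjusted p = 0.0502), GALNT7, DNAJB11, SKA3, IFT80 and SCAMP1, with adjusted p of 0.0601 to 0.0711 and differences of 1.0 to 1.41 (edgeR).

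The core IL4 programme is a list that the study drew from primary B cells, not from these libraries. The 33 genes used here leave out HHEX, which the study's table also holds (difference 0.46, adjusted p = 0.561, edgeR). Of the 33, 16 were among those described. PCED1B was the only one of them to be called, lower, and 15 of 16 had a negative difference. The median was -1.09, made of 1.24 for AAVS pools and 0.09 for CREBBP pools, and the median difference was -1.06 with HHEX, added after seeing the data. By line the median was -1.20, -0.02, -1.95 and -1.21, so line 2 showed next to none of it, and over the 4 lines the mean was -1.09 ± 0.80 (SD, n = 4). At an unadjusted p under 0.05, 12 of the 16 were lower and 0 higher. In the AAVS pools 10 of the 16 passed the test for IL4. The CREBBP pool of line 2 rose with IL4 in genes of the programme. The log2 change there was 1.47 for VMP1, 1.36 for ZNF443, 1.09 for SLC37A3 and 1.07 for SLC39A8. In the AAVS pool of line 2 these genes changed by 1.45, -0.048, 0.61 and 0.896. MAP3K14 (-0.89), AP1B1, CHSY1, PCED1B and RNF19B (-0.162 to -0.0697) fell in the CREBBP pool of line 2. Each of these values rests on 1 pair of libraries and was not tested. They also depend on the scaling, since the TMM factor of the CREBBP pool of line 2 was 1.07 at baseline and 0.725 with IL4. In CPM, which leaves these factors out, the rises there were smaller. VMP1 went from 81.6 to 154 CPM, ZNF443 from 4.80 to 8.40, SLC37A3 from 8.22 to 11.9 and SLC39A8 from 100 to 143.

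PCED1B (chromosome 12, 47079603 to 47236662, plus strand) was at 20.9, 14.98, 30.97 and 27.03 CPM in the AAVS baseline libraries of lines 1 to 4, 62.6, 21.2, 89.8 and 54.3 CPM in AAVS IL4, 24.2, 16.1, 17.7 and 20.1 CPM in CREBBP baseline and 17.7, 10.4, 15.6 and 17.8 CPM in CREBBP IL4. The line 2 library of AAVS IL4 lay within the range of the other groups, and the other 3 were above it. The difference was -1.31 ± 0.25, adjusted p = 0.0459 (edgeR). NFIL3, a bZIP repressor and a known STAT6 target, was at 8.38, 20.3, 6.896 and 10.2 CPM in the AAVS baseline libraries of lines 1 to 4, 69.7, 45.8, 142 and 57.7 CPM in AAVS IL4, 9.68, 27.98, 5.05 and 6.52 CPM in CREBBP baseline and 4.51, 33.3, 7.75 and 6.55 CPM in CREBBP IL4. Its 4 AAVS IL4 libraries were the highest, but the CREBBP pool of line 2 was at 33.3 CPM with IL4, and the difference of -2.6 ± 0.58 did not pass (adjusted p = 0.0779, edgeR). HOMER2, a scaffold protein, had the largest difference of the 16 at -3.2 ± 0.86 (adjusted p = 0.14, edgeR), with -4.63, -0.05, -4.71 and -3.07 in lines 1 to 4.

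The remaining 13 genes of the programme spanned -2.04 (VMP1, an autophagy protein) to 0.19 (RNF19B). SLC37A3 (-2.0), CLCN5 (-1.86) and MAP3K14, the NF-kappaB inducing kinase NIK (-1.59), had adjusted p of 0.194, 0.229 and 0.117 (edgeR). MAP3K14 was negative in 4 of 4 lines, whereas SLC37A3 and CLCN5 were positive in line 2. SOCS1, the inhibitor of JAK kinases that STAT6 induces, was at 14.2 to 66.4 CPM in AAVS baseline and at 62.2 to 73.6 CPM in AAVS IL4, with a difference of -1.06 ± 0.48 (adjusted p = 0.365). SNX8, MKNK1, AP1B1, CHSY1, AUH, ZNF443 and SLC39A8 lay between -1.12 and -0.02, and the sign of the last 2 changed in some settings. The other 17 genes of the programme, CISH among them, did not reach 1 CPM in all 8 baseline libraries. CISH, HLX, IGSF3, IL6, SPINT2, CLEC4A and TMEM71 reached it in none, and QSOX1 and VDR in 7.

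Of 14 described genes of the IL4 receptor, JAK and STAT list, JAK1 alone was called, and the median difference was -0.63. IL4R (chromosome 16, 27313668 to 27364778, plus strand) was at 86.6, 108, 65.1 and 126 CPM in the AAVS baseline libraries of lines 1 to 4, 437, 313, 870.5 and 239 CPM in AAVS IL4, 104, 106, 67.2 and 88.4 CPM in CREBBP baseline and 110.4, 153, 81.2 and 89.04 CPM in CREBBP IL4. All 4 AAVS IL4 libraries were above the other 12. The difference was -1.68 ± 0.49 (adjusted p = 0.174, edgeR), with -2.02, -0.49, -3.37 and -0.88 in lines 1 to 4. The common gamma chain IL2RG was at -0.93 (adjusted p = 0.213), STAT3 at -1.07 (0.0862) and STAT5A at -2.15 (0.132). STAT6 itself was at 0.15 ± 0.34 (adjusted p = 0.886), of either sign depending on the scaling. Its level was 274 to 663 CPM in AAVS baseline, 334 to 572 CPM in AAVS IL4, 232 to 403 CPM in CREBBP baseline and 181 to 403 CPM in CREBBP IL4, and these ranges overlap.

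Surface and survival genes that IL4 is known to regulate in B cells gave 0 calls of 9, with a median of -0.38. FCER2, the low-affinity IgE receptor CD23, was at 17.5 to 212 CPM in AAVS IL4 and 6.79 to 12.6 CPM in AAVS baseline, but the CREBBP pool of line 2 rose from 7.26 to 21.3 CPM, and the difference of -2.04 ± 0.68 did not pass (adjusted p = 0.236, edgeR). FCER2 is also on the list of naive and memory B-cell markers. XBP1, the factor of the secretory programme and a marker on the plasma cell list, was at -2.01 ± 0.51 (0.123). PIM1 was at -2.23 (0.247), CD40 at -1.05 (0.255), and CD86, a costimulatory ligand, at 1.18 (0.256). The B-cell migration receptors GPR183 (-2.33, adjusted p = 0.0581) and CXCR4 (-1.5, 0.171) did not pass either, nor did IRF9 (-1.34, 0.0573) and IRF7 (-1.54, 0.0741) of the 7 interferon-stimulated genes, whose median was -0.55.

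Genes of cell division lay on the other side of the median. Of 25 mitosis genes HMMR was the only one called, 25 of 25 had a positive difference and 19 had an unadjusted p under 0.05, against 1058 of all 11159 genes. The median was 1.02, made of -0.83 for AAVS pools and 0.18 for CREBBP pools. It was 0.73, 0.96, 2.20 and 0.05 in lines 1 to 4, and it lay between 0.84 and 1.02 under the 5 scalings tried. CDK1, the mitotic kinase, was at 1.38 (adjusted p = 0.208), the kinesin CENPE at 1.31 (0.202), topoisomerase TOP2A at 1.18 (0.247) and the exchange factor ECT2 at 1.21 (0.114), none past edgeR's test. The 26 DNA replication genes had 0 calls and a median of 0.56, with 25 positive.

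Other lists above the overall median were sterol synthesis (0.51, 18 genes), glycolysis (0.50, 17 genes), cytosolic ribosomal proteins (0.49, 83 genes), the nuclear-encoded respiratory chain (0.48, 73 genes) and the proteasome (0.47, 31 genes), each with 0 calls. With factors from the 11159 genes alone their medians fell to 0.34, 0.32, 0.31, 0.30 and 0.29, beside 0.04 for all genes described. By line (1 to 4) the sterol median was 0.66, -0.39, 1.79 and -0.47 and that of glycolysis 0.72, -0.29, 1.19 and 0.28. The median of the ribosomal proteins was 0.35, 1.56, 0.26 and 0.09, that of the respiratory chain 0.38, 1.49, 0.23 and -0.03 and that of the proteasome 0.47, 1.12, 0.36 and -0.15. The last 3 lists were thus highest in line 2, whose CREBBP IL4 library had 18.1% of its counts in RN7SK and RN7SL, against 4.41% to 13.3% in the other libraries, and the part of this in the medians was not tested. Lists with 0 calls and medians nearer to that of all genes were mitochondrially encoded transcripts (0.33), germinal centre transcription factors (0.32), B-cell receptor signalling (0.30), the MYC network (0.26), lymphoma chromatin genes (0.11), Rag GTPases and lysosomal mTOR (0.09), trafficking receptors (0.04), the unfolded protein response (0.02), the BCL2 family (0.01), histone deacetylases (0.00) and SOCS inhibitors (-0.03). The sign of the lists from lymphoma chromatin genes to histone deacetylases changed with the scaling.

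**Figure D5:**
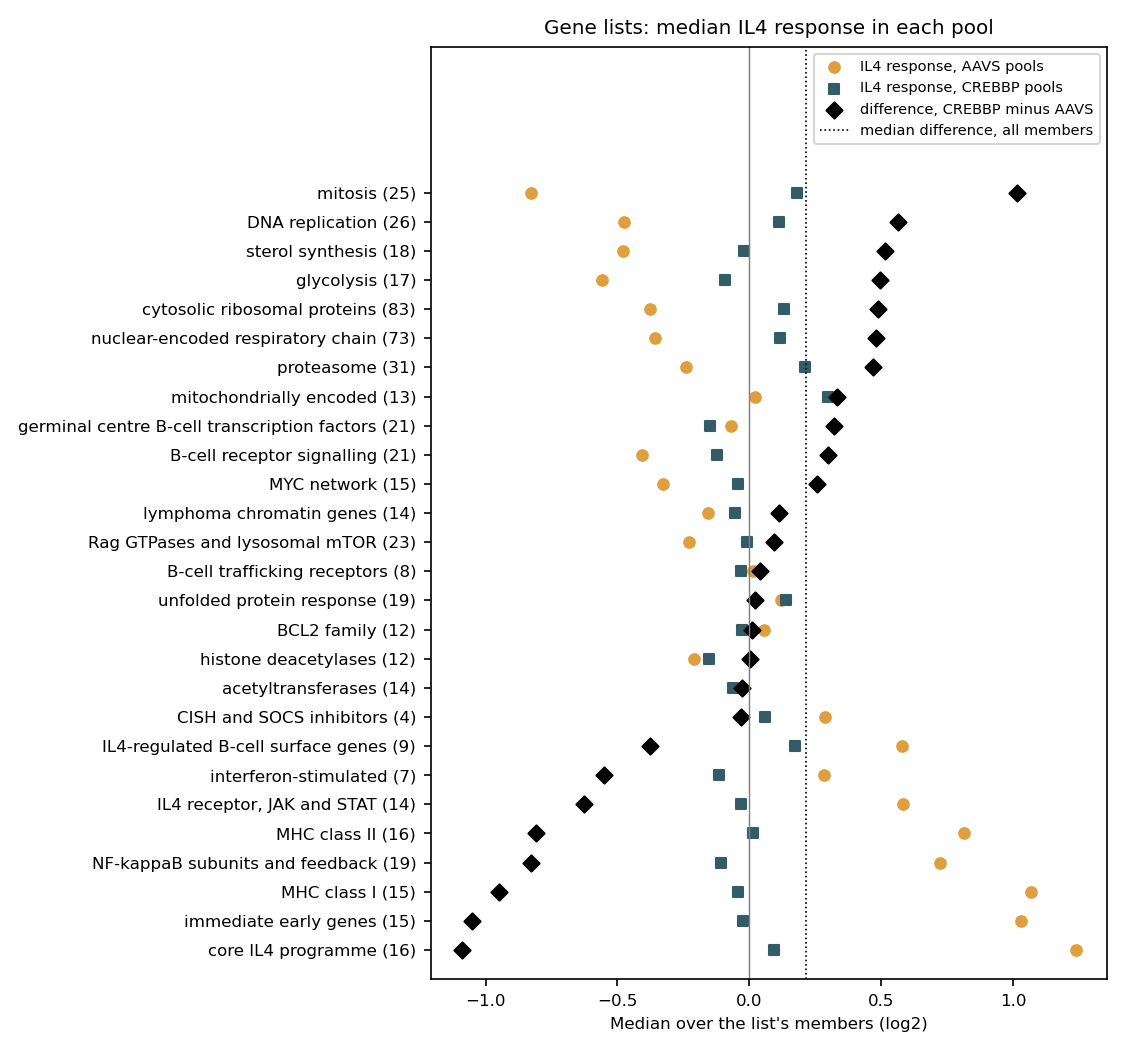
Median log2 fold change with IL4 over the described genes of each list in the AAVS pools (orange circles) and CREBBP pools (squares), and median difference (diamonds), with the number of genes in brackets and the median difference of all 11159 genes as a dotted line. The core IL4 programme is lowest at -1.09 and the mitosis genes highest at 1.02, while the CREBBP medians stay between -0.15 and 0.30.

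The limit of 1 CPM shaped which genes are described. Called genes just inside it were LMNA (lowest baseline value 1.04 CPM), ENSG00000286281 (1.05 CPM) and FOSL2 (1.25 CPM). Just outside were FCMR (0.981 CPM), VDR (0.891 CPM) and ZDHHC23 (0.809 CPM), with differences of -1.73, -2.09 and -3.0. A limit of 5 CPM left 19 calls of the 42.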

How the data were processed

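Total RNA was sequenced in 16 libraries of 4 lymphoma lines. The authors trimmed paired-end reads with Cutadapt 2.3, checked them with FastQC 0.11.8 and MultiQC 1.7, mapped them to GRCh38 with STAR 2.7.8a and estimated counts per gene with RSEM 1.3.3, per the submitters' processing notes. The authors deposited these estimated counts (expected counts) as whole numbers, not normalized, so no rounding was needed. RSEM divides reads shared between similar genes by estimate. Whether technical replicates were averaged for the lines is not given in the sources used here.

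From the counts on, Python 3.11.15 (pandas 2.3.3, matplotlib 3.10.9) prepared the tables and DESeq2 1.42.0, limma 3.58.1 and edgeR 4.0.16 in R 4.3.3 fitted the models. Total counts ranged from 19649735 to 61981976. Genes were kept by filterByExpr (21932 genes), scaled by TMM and put through edgeR's quasi-likelihood test in 1 model of 16 libraries with a term for each of the 8 pools and an IL4 term for each genotype (10 terms, 6 residual degrees of freedom). P-values were two-sided and Benjamini-Hochberg adjusted over all 21932 genes, with 0.05 as the threshold. The authors name DESeq2 for their tests. CPM uses total counts, the fitted fold changes use TMM. Values by line are differences of TMM-scaled log2 CPM with a prior count of 2. The test was also run on simulated counts without differences between lines and with changes in CREBBP IL4 only. That setting differs from these data, so the run does not show how the test performs on them.

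The pairing comes from the labels, since the baseline and IL4 libraries of a pool are the same targeted line. Their deviations from the group means correlated at 0.120 (AAVS line 3) to 0.790 over the 8 pools. Replicates of a group differed beyond sampling noise (chi-square of 98.7 or more per degree of freedom). Positions and gene types come from GENCODE release 44. Promoters (8001 of 9692 protein-coding genes described, matched by symbol, first listed start) come from RefSeq. The guides were matched to the hg38 genome. The members, gene lists, motifs and tests were chosen with earlier results of these data known, so they give no independent support. Named were, among called genes with 1 sign in 4 of 4 lines, up to 20 with the largest difference in each direction (filled up to 10 by the smallest p), CREBBP, EP300, IL4R, STAT6 and JAK1, the described genes of the core programme, and the called genes of each list or else its 2 genes with the smallest p. The other genes named were chosen after their values were seen. The control guides and some values of single genes are not reported here. Alternatives were other scalings, filters, blocks, limits, tests and each line left out.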

Additional observations from a re-analysis of the deposited data

Results flagged for a closer look

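For 42 genes the IL4 response differed between CREBBP and AAVS pools by the test of the difference itself, an interaction term of edgeR's quasi-likelihood test (adjusted p under 0.05, same sign in 4 of 4 lines for all 42). The log2 difference was negative, a lower response in the CREBBP pools, for genes that include ENSG00000286281 -5.38, LMNA -4.71, ARID5A -3.47, TNFAIP3 -3.46, ABTB2 -3.44, FOSL2 -3.36, ADAM8 -3.11, HLA-C -3.10, DENND5A -3.08, PDE4B -2.99, HILPDA -2.99, CFLAR -2.97, LYST -2.88, ITGAV -2.76, HLA-B -2.58, ACP5 -2.51, ARID5B -2.46, ZBTB4 -2.23, DMD -1.95, EMP3 -1.93, ARID3B -1.93, PRKCE -1.93, TRIB1 -1.90, PHF1 -1.85, BIRC3 -1.84, NFKB2 -1.82, NLRP1 -1.79, LITAF -1.78, ZFP36L1 -1.76, IRF2BP2 -1.71, TRAF1 -1.67, FCRL3 -1.56, CTNNA1 -1.53, ZSWIM6 -1.47, NCOA1 -1.41, JAK1 -1.38 and PCED1B -1.31. It was positive for PUS7L 1.29, HMMR 1.42, RGS18 2.34 and TDRD6 2.71. The 38 negative values rest on the AAVS IL4 libraries, which also hold transcripts that the other groups hardly held, and the part of these in the differences was not tested.

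In the 42 genes, the 4 libraries of each group were examined for a single library far from the other 3 (Dixon's criterion on log2 of CPM plus 1), and 11 of 168 sets had one, where chance gives about 1 in 20. The library of line 2 was the lowest for CFLAR in AAVS baseline (6.23 CPM), FCRL3 in AAVS baseline (3.83 CPM) and CREBBP IL4 (2.21 CPM), NCOA1 in CREBBP IL4 (5.52 CPM) and TRIB1 in CREBBP baseline (4.25 CPM) and CREBBP IL4 (1.49 CPM). Line 4 was the lowest for EMP3 in AAVS baseline (4.98 CPM) and the highest for ITGAV in CREBBP baseline (10.1 CPM) and TDRD6 in AAVS baseline (26.2 CPM). Line 1 was the highest for LYST (10.6 CPM) and the lowest for NLRP1 (11.1 CPM), both in AAVS baseline.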

How the results depend on the processing

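The direction of each of the 42 differences held in the 16 other fits, but the calls did not. The held direction is little support, since these fits reuse the same libraries and all 42 genes had 1 sign in 4 of 4 lines. Against 42 genes called for a different response, there were 361 with no filter on low counts, 453 with DESeq2's Wald test, 125 with limma-voom, 107 at an adjusted p under 0.1 (chosen after seeing the data), 20 with a replicate block by line only, 19 with a limit of 5 CPM, 3 with lines 1, 3 and 4 summed and 0 with lines 1 and 4 summed and line 3 left out (also chosen after seeing the data). Leaving out 1 line gave 1 to 92 calls (1 without line 1, 92 without line 2, 3 without line 3, 34 without line 4), of which 1, 29, 3 and 18 were among the 42. For IL4 in the AAVS pools, against 370 genes there were 1171, 1162, 556, 240, 38 and 13 with no filter, DESeq2, limma-voom, 5 CPM and the 2 ways of summing lines, and 53 to 613 with 1 line left out. Without the pairing, that is with no replicate block, 1 gene differed in response and 50 changed in the AAVS pools. In the CREBBP pools edgeR, DESeq2 and limma-voom called 0 of the genes described in every fit (225 at an unadjusted p under 0.05 in edgeR's). Calls with DESeq2's size factors, upper-quartile factors, TMM factors from the genes described, totals without RN7SK and RN7SL, 10 counts in every library, a limit of 0.5 CPM or TMM-scaled CPM were 40 to 58. The median of the core programme stayed between -1.45 and -0.88 and the CREBBP transcript between -0.76 and -0.26, uncalled.

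Only genes named by the rule given above were followed across the settings. Of those not called, 5 changed sign. Other uncalled genes, RFX5 and TAP2 among them, were not followed, so their signs may change as well. EP300 was 0.059 with no replicate block, 0.090 without line 2 and 0.017 without line 4. STAT6 was -0.0066 with upper-quartile factors, -0.028 with TMM factors from the genes described, -0.010 with 10 counts in every library, -0.15 and -0.23 with lines summed (line 3 in or out) and -0.12 without line 3. SLC39A8 was 0.046 with no replicate block, 0.017 with a block by line and 0.0081 with 3 lines summed. ZNF443 was 0.14 and 0.38 with lines summed and 0.021 without line 3. SOCS7 was -0.11 with lines 1 and 4 summed and -0.023 without line 3. With each line left out in turn, the values spanned -0.38 to 0.090 for EP300, -0.12 to 0.36 for STAT6, -1.32 to 0.021 for ZNF443 and -0.023 to 0.41 for SOCS7. The cause of these changes was not tested.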
